A study of Mus musculus with 12 samples.

Results

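The genes described here are Slc2a1, Hk1, Hk2, Pfkfb3, Ldha, Pgk1, Pdk1, Bnip3, Ndrg1 and P4ha1, 10 of the 22180 genes that the arrays measured with a probe of their own. They were chosen by name, as genes of glucose use and genes induced by low oxygen, with earlier results of these data known. Each is represented by the probe, among those paired with that gene symbol alone, that had the highest mean over all arrays. RNA of whole lung was hybridised to Affymetrix arrays, with 1 array for each of 12 female mice aged 10 weeks. The mice were wildtype (wild type below) or lacked the metalloprotease Zmpste24 (Zmpste24-/-) that cuts the precursor of lamin A (allele not given in the sources used here). Baseline mice were intact. Ventilated mice received 2.5 hours of mechanical ventilation at an inspiratory pressure of 15 cmH2O and no pressure at the end of expiration, at a rate of 100 breaths/min, breathing an oxygen fraction of 0.21. Each of the 4 groups held 3 mice, which the labels call biological replicates.

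Glycolysis splits glucose into pyruvate. Cells use it more when oxygen is short, because hypoxia-inducible factor (HIF) is then no longer destroyed and switches on genes for glucose uptake, glycolytic enzymes and lactate production. HIF also raises genes that limit the entry of pyruvate into mitochondria, that remove mitochondria, and that modify collagen. The same genes can respond to growth factors, inflammation and other stress, and they are known as a joint program rather than as marks of oxygen shortage alone. In lung they are expressed in epithelium, endothelium and blood-derived cells.

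HIF binds short sites with the core letters ACGTG or GCGTG. RefSeq promoter windows (GRCm38.p6, 250 bases before to 50 bases after an annotated start, 300 bases in all) were found for 9 of the 10 genes, and Ndrg1 had none in the table used. The core ACGTG stood on either strand in a window of 8 of these 9 genes (88.9%), against 21.8% of the 27025 genes with a window. For GCGTG the shares were 7 of 9 genes (77.8%) and 35.2%. High shares were not particular to these 9 genes. Of 18 other hypoxia-induced genes with a window, 12 held ACGTG (66.7%) and 15 held GCGTG (83.3%). Of 14 further glycolytic enzymes, 6 held ACGTG (42.9%) and 9 held GCGTG (64.3%). Over single windows of the same length, 19.6% of 32851 held ACGTG and 32.4% held GCGTG. Of the 13 windows of these 9 genes, 9 held ACGTG (69.2%) and 8 held GCGTG (61.5%). Pdk1 was the gene without ACGTG in either of its windows. The first window is printed below for the 6 genes whose level passed the test in at least 1 comparison, so that the letters can be set beside the values that follow. Capitals mark both cores. On the opposite strand they read CACGT and CACGC in this orientation, and a run that reads the same on both strands holds ACGTG on each and was counted 2 times. A match describes letters and not a binding site.
Slc2a1, chr4:119108495-119108794, plus strand: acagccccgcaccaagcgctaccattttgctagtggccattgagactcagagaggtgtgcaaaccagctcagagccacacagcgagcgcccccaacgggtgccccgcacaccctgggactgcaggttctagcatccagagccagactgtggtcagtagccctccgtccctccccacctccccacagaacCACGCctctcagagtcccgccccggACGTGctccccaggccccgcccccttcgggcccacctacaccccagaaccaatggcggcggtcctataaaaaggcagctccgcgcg
Hk2, chr6:82774405-82774704, minus strand: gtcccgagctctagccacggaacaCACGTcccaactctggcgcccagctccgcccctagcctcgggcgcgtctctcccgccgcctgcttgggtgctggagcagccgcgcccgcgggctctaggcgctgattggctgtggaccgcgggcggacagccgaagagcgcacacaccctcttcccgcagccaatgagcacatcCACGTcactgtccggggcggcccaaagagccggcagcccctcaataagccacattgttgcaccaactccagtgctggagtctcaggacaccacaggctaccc
Ldha, chr7:46845554-46845853, plus strand: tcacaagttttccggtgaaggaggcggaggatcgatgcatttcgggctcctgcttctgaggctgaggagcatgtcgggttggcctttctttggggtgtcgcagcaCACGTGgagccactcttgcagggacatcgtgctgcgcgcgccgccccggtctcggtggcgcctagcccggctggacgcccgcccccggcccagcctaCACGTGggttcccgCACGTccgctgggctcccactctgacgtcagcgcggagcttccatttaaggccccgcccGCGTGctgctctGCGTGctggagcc
Pdk1, chr2:71872974-71873273, plus strand: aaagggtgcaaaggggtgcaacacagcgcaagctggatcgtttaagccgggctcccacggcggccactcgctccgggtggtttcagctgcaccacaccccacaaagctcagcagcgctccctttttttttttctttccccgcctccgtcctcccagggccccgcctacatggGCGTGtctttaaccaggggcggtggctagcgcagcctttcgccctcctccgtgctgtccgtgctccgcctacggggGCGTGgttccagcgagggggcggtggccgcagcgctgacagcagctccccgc
Bnip3, chr7:138909457-138909756, minus strand: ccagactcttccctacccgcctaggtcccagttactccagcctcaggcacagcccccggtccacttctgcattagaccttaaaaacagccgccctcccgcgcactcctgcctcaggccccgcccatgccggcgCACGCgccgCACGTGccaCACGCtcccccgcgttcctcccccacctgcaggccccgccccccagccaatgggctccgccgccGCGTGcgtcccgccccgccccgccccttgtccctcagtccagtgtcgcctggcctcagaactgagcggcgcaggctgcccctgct
P4ha1, chr10:59323046-59323345, plus strand: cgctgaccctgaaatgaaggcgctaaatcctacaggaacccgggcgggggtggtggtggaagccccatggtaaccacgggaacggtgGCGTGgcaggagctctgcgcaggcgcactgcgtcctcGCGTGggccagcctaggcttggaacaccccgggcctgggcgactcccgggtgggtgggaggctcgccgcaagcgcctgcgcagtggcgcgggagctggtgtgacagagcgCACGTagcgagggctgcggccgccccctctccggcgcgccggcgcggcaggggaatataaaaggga

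The Ldha window held ACGTG 5 times, counted over both strands, and the one nearest the start ended at position -30 (positions count bases from the start, negative before it). In Slc2a1 a single ACGTG lay at -36 to -32, and in P4ha1 a single one lay at -16 to -12. Hk2 had its core at positions -226 to -222 and -52 to -48. In Bnip3 the ACGTG run, which stands on both strands, began at -108 and was flanked by GCGTG cores. Of the other genes, Pgk1 held ACGTG 2 times in its single window, and Pfkfb3 held it in both of its windows. Hk1 held it only in the second of its windows.

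Facts of the whole data set bear on the values as follows. The deposited log2 values had array medians of 5.35 to 5.42, and no array fell below its median for any of the 10 genes. Over probes, which are no replicates of each other, the correlation between arrays was 0.986 to 0.992 within groups and 0.970 to 0.988 between groups. Zmpste24 was lower in every Zmpste24-/- array, at 5.01 to 5.91 against 8.50 to 9.28 in wild type (position of its probe relative to the deleted part: not given in the sources used here). All 7 alveolar type 2 markers, among them the surfactant proteins that define lung, lay above the array median on all 12 arrays. The wild type baseline array 2 stood apart with liver transcripts (Alb 11.52 and Mup20 10.05, log2), and Zmpste24-/- baseline array 1 with adipocyte markers (summed level 2434 against 298 and 816 on the other arrays of its group). Their part in the results was not tested, and values without these arrays are given where a call depends on them. Liver transcripts (6 measured) also differed by genotype. Their sums were 559 to 4659 in wild type and 225 to 264 in Zmpste24-/- baseline lungs, and 291 to 882 and 236 to 248 after ventilation. At baseline 4 of the 6 passed as lower in Zmpste24-/- lungs. Wild type baseline arrays 1 and 3 had sums of 559 and 920, and fits without array 2 keep them. The number of arrays, 3 per group, limits precision, and an exact permutation test of 1 gene could not give a p below 0.1.

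Ventilation raised 3 of the 10 genes in wild type lungs and lowered none: Slc2a1, which carries glucose into the cell, Hk2, which phosphorylates it, and Bnip3, a mitochondrial receptor for mitophagy and cell death (limma on all 12 arrays, adjusted p under 0.05 by Benjamini-Hochberg over all genes, here and below). In Zmpste24-/- lungs it raised 5, the same 3 with Ldha and P4ha1, and lowered Pdk1. Over all genes, 3.67% rose and 3.53% fell in wild type lungs, and 8.89% rose and 7.52% fell in Zmpste24-/- lungs. Arrays of ventilated and baseline lungs did not overlap in 5 of the 10 genes in wild type (22.6% of all genes) and in 6 of 10 in Zmpste24-/- (33.4%). The median difference was 0.26 (log2) in wild type and 0.28 in Zmpste24-/- lungs, and -0.01 over all genes in both. Without the wild type baseline array that carried liver transcripts the count in wild type was again 3. The ventilation comparisons of the genotypes use separate arrays, while each genotype comparison below shares its arrays with them. In whole lung, fewer cells of a type and less RNA per cell cannot be told apart.

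**Figure D1:**
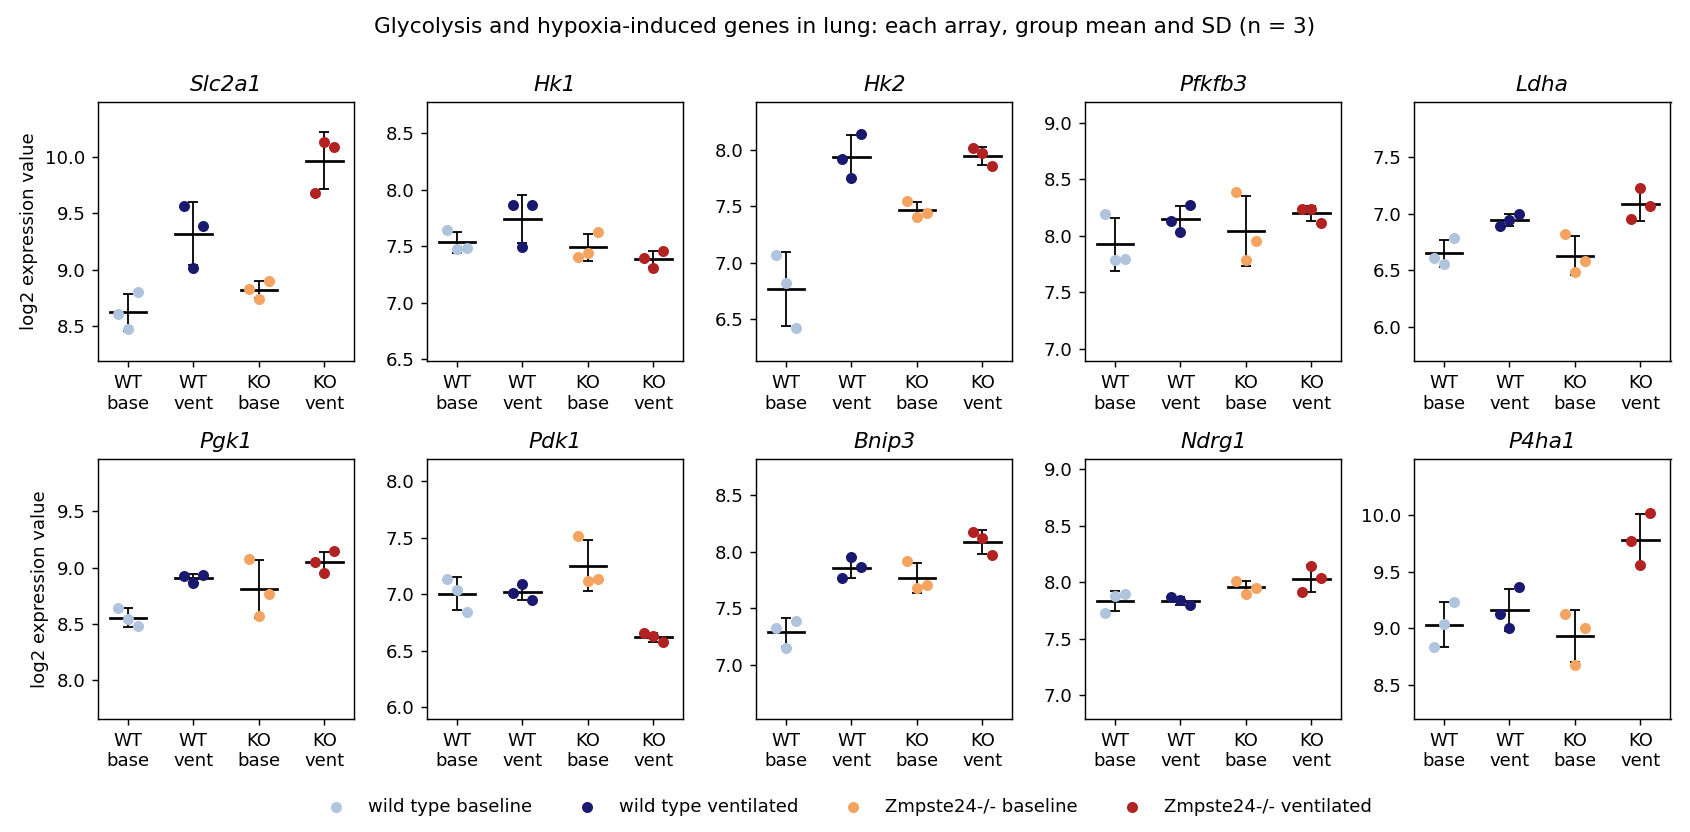
Log2 expression value (y axis, the same span but a different range in each panel) of the 10 genes on each of the 12 arrays, by group (WT wild type, KO Zmpste24-/-, base baseline, vent ventilated). Points are arrays, lines are group means and bars the SD (n = 3). Slc2a1 and P4ha1 stand highest in Zmpste24-/- ventilated lungs, Pdk1 stands lowest there, and Hk2 and Bnip3 stand lowest in wild type baseline lungs.

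Slc2a1 encodes GLUT1, the glucose transporter of most cells. Wild type arrays read 8.60, 8.47 and 8.80 (log2, arrays 1 to 3) at baseline and 9.56, 9.01 and 9.38 after ventilation. The Zmpste24-/- arrays read 8.83, 8.74 and 8.90 at baseline and 9.68, 10.13 and 10.09 after ventilation. Every ventilated array lay above every baseline array of either genotype, and every ventilated Zmpste24-/- array lay above every ventilated wild type array. Ventilation raised it by 0.70 ± 0.15 in wild type lungs (mean log2 difference ± standard error, with n = 3 in each group, 1.62-fold, adjusted p = 0.0114) and by 1.14 ± 0.15 in Zmpste24-/- lungs (2.21-fold, adjusted p = 0.000145). Zmpste24-/- lungs exceeded wild type by 0.65 ± 0.15 under ventilation (1.56-fold, adjusted p = 0.0126), and differed by 0.20 ± 0.15 at baseline, where the arrays overlapped (adjusted p = 0.493). The wild type call was lost without ventilated array 3 (0.66, adjusted p = 0.0524). The genotype call under ventilation was lost when array 2 of the wild type or array 2 or 3 of the Zmpste24-/- ventilated lungs was left out (adjusted p = 0.0580, 0.0555 and 0.0572). A second probe of Slc2a1 lay below the array median on all 12 arrays and gave 0.07 and 0.05 for ventilation in wild type and Zmpste24-/- lungs, neither of which passed.

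The hexokinases trap glucose in the cell by phosphorylating it, and Hk1 is the form found in most tissues while Hk2 is the inducible form. At baseline the wild type arrays read 7.07, 6.82 and 6.42 (log2) for Hk2, and after ventilation 7.92, 7.75 and 8.14. Those of Zmpste24-/- mice read 7.55, 7.41 and 7.44 at baseline and 8.02, 7.97 and 7.86 after ventilation. The wild type baseline arrays were the lowest of all and the most spread, and the ventilated arrays of the genotypes overlapped. Ventilation raised Hk2 by 1.17 ± 0.14 in wild type lungs (log2, 2.25-fold, adjusted p = 0.000336) and by 0.48 ± 0.14 in Zmpste24-/- lungs (1.40-fold, adjusted p = 0.0310). At baseline Zmpste24-/- lungs were higher by 0.70 ± 0.14 (1.62-fold, adjusted p = 0.0106). Under ventilation the genotypes differed by 0.01 ± 0.14, with a 95% interval of -0.29 to 0.31. The wild type call held in each of the alternatives tried, with adjusted p up to 0.00616. The call in Zmpste24-/- lungs was lost when any of 5 arrays was left out, Zmpste24-/- baseline arrays 2 and 3 and ventilated arrays 1, 2 and 3, with adjusted p of 0.0559 to 0.0911.

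Hk1 lay between 7.31 and 7.86 (log2) on all arrays, and no comparison passed. After ventilation it read 7.86, 7.49 and 7.86 in wild type mice and 7.40, 7.31 and 7.46 in Zmpste24-/- mice, which do not overlap. That genotype difference was -0.35 ± 0.11 (adjusted p = 0.0517), so it missed the threshold, and it passed when array 2 of the wild type ventilated lungs was left out (adjusted p = 0.0138) and with dim genes left out or arrays weighted by quality. Ventilation gave 0.21 ± 0.11 in wild type and -0.10 ± 0.11 in Zmpste24-/- lungs. A probe shared by Hk1 and its antisense gene Hk1os was not used. With that probe no comparison passed.

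Pfkfb3 makes fructose 2,6-bisphosphate, the strongest activator of phosphofructokinase, and Pgk1 encodes phosphoglycerate kinase, an enzyme of the later steps that yields ATP. Pfkfb3 lay between 7.78 and 8.39 (log2) and overlapped in every comparison. Its ventilation differences were 0.22 ± 0.15 in wild type lungs (95% interval -0.09 to 0.53) and 0.16 ± 0.15 in Zmpste24-/- lungs (-0.16 to 0.47). Both intervals include the size measured for Ldha in Zmpste24-/- lungs, 0.45. For Pgk1, wild type baseline arrays read 8.64, 8.54 and 8.48 and ventilated arrays 8.92, 8.87 and 8.94, without overlap. That difference was 0.35 ± 0.11 (adjusted p = 0.0783) and passed when Zmpste24-/- baseline array 1 or 2 was left out of the fit (adjusted p = 0.0280 and 0.0454). Zmpste24-/- baseline lungs read 9.08, 8.57 and 8.77 for Pgk1, with array 1 highest, and ventilated lungs 9.04, 8.95 and 9.14. The difference there was 0.24 ± 0.11 (adjusted p = 0.186), and without baseline array 1, the array with the high adipocyte markers, it was 0.38 (adjusted p = 0.0209).

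Ldha encodes the lactate dehydrogenase subunit that turns pyruvate into lactate. In wild type mice the values were 6.61, 6.55 and 6.78 (log2) at baseline and 6.89, 6.94 and 7.00 after ventilation. Zmpste24-/- arrays gave 6.82, 6.48 and 6.58 at baseline and 6.95, 7.23 and 7.06 after ventilation. In both genotypes all ventilated arrays lay above all baseline arrays. The difference passed in Zmpste24-/- lungs, at 0.45 ± 0.10 (1.37-fold, adjusted p = 0.00889), and not in wild type lungs, at 0.29 ± 0.10 (1.23-fold, adjusted p = 0.118). The difference between these values, 0.16 ± 0.15, was not past the threshold either (interaction, adjusted p = 0.754). Genotype differences in Ldha were -0.02 ± 0.10 at baseline and 0.14 ± 0.10 under ventilation.

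Pdk1 encodes a kinase that switches off pyruvate dehydrogenase and so keeps pyruvate out of mitochondria. The wild type values were 7.14, 7.04 and 6.84 (log2) before and 7.01, 7.09 and 6.95 after ventilation. Zmpste24-/- values were 7.52, 7.11 and 7.13 at baseline and 6.66, 6.63 and 6.58 after ventilation. The ventilated Zmpste24-/- arrays were the lowest of all 12, and wild type arrays overlapped between conditions. Ventilation lowered Pdk1 in Zmpste24-/- lungs by a log2 difference of -0.63 ± 0.11 (1.55-fold lower, adjusted p = 0.00144) and differed by 0.01 ± 0.11 in wild type lungs (95% interval -0.22 to 0.25). Under ventilation Zmpste24-/- lungs were lower than wild type by -0.40 ± 0.11 (adjusted p = 0.0341). That genotype call was lost with array medians subtracted (adjusted p = 0.0630), with arrays quantile normalized again (0.0685), with the mean of the gene's probes (0.178) and without each of the 6 ventilated arrays in turn (0.0625 to 0.119). A second probe of Pdk1 lay below the array median on all 12 arrays, at 3.06 to 3.25. It gave a ventilation difference of -0.06 in Zmpste24-/- lungs (adjusted p = 0.762) and a genotype difference of 0.05 under ventilation, so neither call was seen with it.

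The remaining genes are targets of low oxygen outside glycolysis. For Bnip3 the wild type arrays read 7.33, 7.15 and 7.39 (log2) at baseline and 7.77, 7.95 and 7.86 after ventilation. Arrays of Zmpste24-/- mice read 7.92, 7.68 and 7.71 at baseline and 8.17, 8.13 and 7.97 after ventilation. The 3 wild type baseline arrays were the lowest and did not overlap with any other group. Ventilation raised Bnip3 by 0.57 ± 0.10 in wild type lungs (1.49-fold, adjusted p = 0.00329) and by 0.32 ± 0.10 in Zmpste24-/- lungs (1.25-fold, adjusted p = 0.0368). At baseline Zmpste24-/- lungs exceeded wild type by 0.48 ± 0.10 (1.39-fold, adjusted p = 0.0114). The wild type ventilation call held in every alternative. The Zmpste24-/- ventilation call was lost without baseline array 2 or 3 or ventilated array 1 or 2 of that genotype (adjusted p = 0.113 to 0.130).

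Ndrg1, a stress-responsive gene that hypoxia induces in many cells, lay between 7.73 and 8.15 (log2). Its ventilation differences were 0.00 ± 0.08 in wild type lungs (95% interval -0.18 to 0.18) and 0.08 ± 0.08 in Zmpste24-/- lungs (-0.10 to 0.26). The Zmpste24-/- arrays did not overlap with wild type at baseline or under ventilation, with differences of 0.12 ± 0.08 (adjusted p = 0.451) and 0.20 ± 0.08 (adjusted p = 0.153). Among the 10 genes it had the smallest spread between arrays of a group, a pooled SD of 0.08, and the smallest range of group means, 0.20.

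P4ha1 encodes the catalytic subunit of prolyl 4-hydroxylase, which hydroxylates proline in collagen. Its wild type values were 8.83, 9.04 and 9.23 (log2) at baseline and 9.12, 9.0 and 9.37 after ventilation. The Zmpste24-/- values were 9.12, 8.68 and 9.0 at baseline and 9.77, 9.56 and 10.02 after ventilation. The ventilated Zmpste24-/- arrays were above the other 9, which overlapped with each other. Ventilation raised P4ha1 in Zmpste24-/- lungs by 0.85 ± 0.15 (1.80-fold, adjusted p = 0.00145) and gave 0.13 ± 0.15 in wild type lungs (95% interval -0.19 to 0.45). Under ventilation Zmpste24-/- lungs were higher by 0.62 ± 0.15 (1.54-fold, adjusted p = 0.0167). Without wild type ventilated array 2 or Zmpste24-/- ventilated array 3 that genotype call was lost (adjusted p = 0.0763 and 0.0779). Fibroblast markers, most of them collagens and other matrix genes, had sums of 4497 to 4808 in the Zmpste24-/- ventilated lungs and 5524 to 5949 in the wild type ventilated lungs. At baseline they were likewise lower in Zmpste24-/- lungs, at 5056 to 5626 against 5873 to 6792, where P4ha1 differed by -0.10 ± 0.15. Under ventilation 4 of these 7 markers passed as lower in Zmpste24-/- lungs and 1, Tcf21, as higher. Their part in the P4ha1 result was not tested.

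Before ventilation, Hk2 and Bnip3 were higher in Zmpste24-/- than in wild type lungs, 2 of the 10 genes, and none were lower, against 2.20% and 4.11% of all genes. Both calls held without the wild type baseline array that carried liver transcripts (adjusted p = 0.0284 for Hk2 and 0.0489 for Bnip3). Arrays of the genotypes did not overlap in 3 of the 10 genes at baseline (23.9% of all genes) and in 7 of 10 under ventilation (30.3%). Under ventilation 2 of 10 were higher (Slc2a1 and P4ha1) and 1 was lower (Pdk1), against 4.72% and 6.08% of all genes. The count of 3 under ventilation was 0 without Zmpste24-/- ventilated array 3, and 1 without Zmpste24-/- ventilated array 2, where P4ha1 passed. Without wild type ventilated array 2 none of these 3 genes passed, and Hk1 did. The median genotype difference was 0.16 at baseline and 0.14 under ventilation, against -0.01 and 0.01 over all genes.

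**Figure D2:**
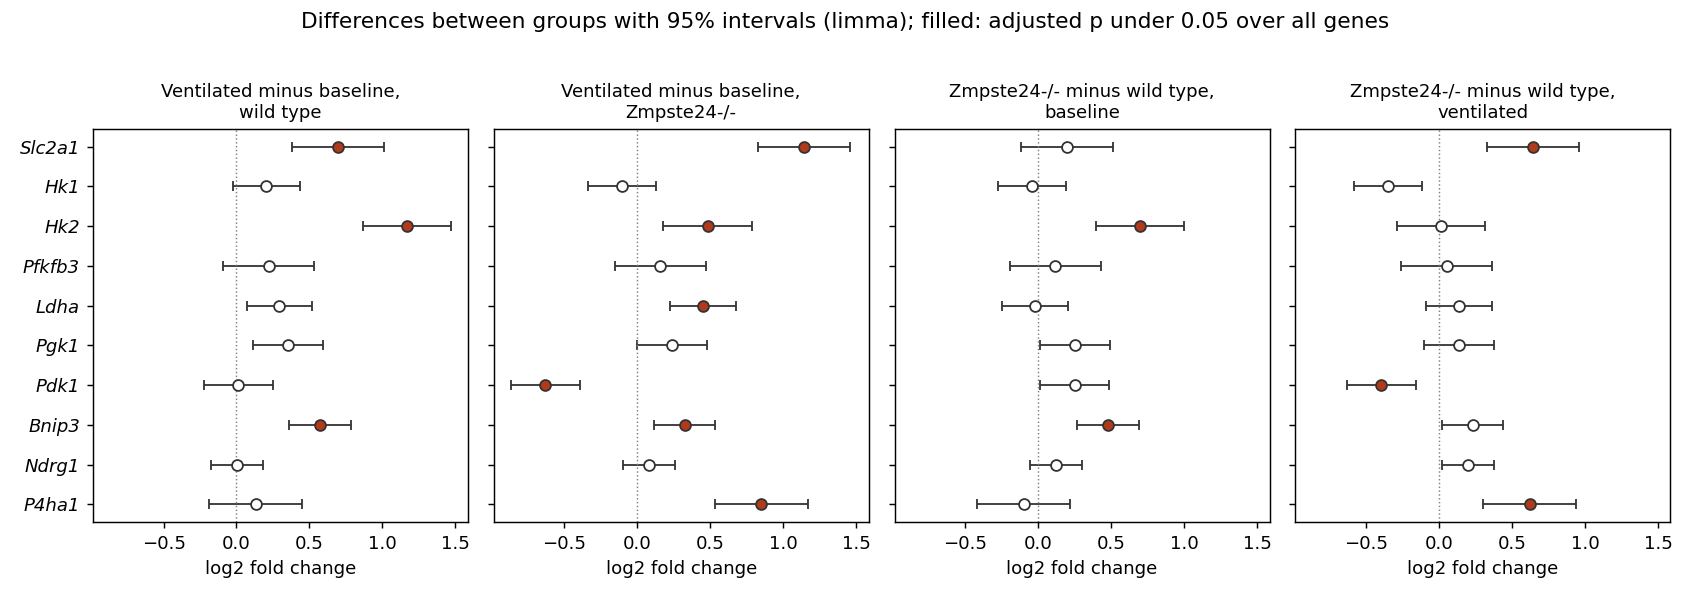
Differences of the 10 genes in the 4 pairwise comparisons (log2 fold change, x axis) with 95% intervals from limma. Filled points passed an adjusted p under 0.05 over all genes. Slc2a1, Hk2 and Bnip3 are filled for ventilation in both genotypes, and Pdk1 is the filled point below 0.

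Whether ventilation acted differently in the genotypes was tested by the interaction. None of the 10 genes passed it in limma, and 0.316% of all genes did (70 of 22180). At an unadjusted p under 0.05 there were 4: Slc2a1, whose difference between the effects was 0.45 ± 0.21 (adjusted p = 0.423), Hk2 at -0.69 ± 0.20 (0.170), Pdk1 at -0.64 ± 0.16 (0.102) and P4ha1 at 0.72 ± 0.21 (0.174). The share of all genes at that unadjusted threshold is not given here, and the 0.316% is for the adjusted one. The count of 4 therefore cannot be read as an excess. For Hk2 the estimated effect was smaller in Zmpste24-/- lungs, and for P4ha1 and Slc2a1 it was larger. The interval of the Hk2 difference was -1.11 to -0.26 and that of P4ha1 0.27 to 1.17. These intervals are for single genes and are not adjusted for the number of genes tested.

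The genes also differed in how much they varied. The pooled SD between arrays of a group had a median of 0.14 over the 10 genes and of 0.13 over all genes. Group means of Slc2a1 spanned 1.34 (log2) with a pooled SD of 0.21, and those of Hk2 spanned 1.18 with 0.20. P4ha1 spanned 0.85 with 0.21 and Bnip3 0.80 with 0.12, whereas Hk1, Pfkfb3 and Ndrg1 spanned 0.35, 0.27 and 0.20.

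Markers of several cell types moved with the groups. Neutrophil markers (10 measured) had a summed linear level of 901 to 1555 in wild type baseline lungs, 1740 to 2660 after their ventilation, 1191 to 2158 in Zmpste24-/- baseline and 4354 to 4880 in Zmpste24-/- ventilated lungs. Of these 10 markers 5 passed as higher for ventilation in wild type, 9 in Zmpste24-/-, 1 for genotype at baseline and 7 for genotype under ventilation. Without the wild type baseline array that carried liver transcripts the count for ventilation in wild type was 2. The defining marker Ly6g lay below the array median on all arrays. Endothelial markers moved the other way, with 7 of 8 lower for ventilation in wild type and 6 of 8 in Zmpste24-/- lungs (4 in wild type without the array with liver transcripts), and sums of 13360 to 14012, 9686 to 10808, 10368 to 11240 and 8018 to 9296 in the same group order. For genotype, 4 of the 8 endothelial markers were lower in Zmpste24-/- lungs at baseline (1 without that array), and under ventilation 3 were lower and 1 was higher. Of the T, B and NK markers, 2 of 9 passed as lower for ventilation in wild type and 4 of 9 in Zmpste24-/- lungs. These markers also differed by genotype, with 7 of 9 lower in Zmpste24-/- lungs both at baseline and under ventilation. Their sums did not overlap between genotypes, at 2029 to 2698 in wild type against 1101 to 1363 in Zmpste24-/- baseline lungs, and 1480 to 1979 against 859 to 1015 after ventilation. Alveolar type 1 sums were higher in Zmpste24-/- lungs, at 10968 to 11834 against 9833 to 10446 at baseline and 10239 to 11198 against 8277 to 9582 after ventilation. None of these 6 markers passed for genotype at baseline, and 2 passed as higher under ventilation. Macrophage and monocyte sums overlapped, at 3988 to 4904, 3339 to 4173, 3850 to 4341 and 4108 to 5240. Single markers of this list did pass. Of the 10, 3 were lower in Zmpste24-/- lungs at baseline, and under ventilation 1 was lower and 1 was higher. For ventilation, 1 was lower in wild type and none passed in Zmpste24-/- lungs. The group with the highest neutrophil sums had the highest mean of Slc2a1, Hk2, Pfkfb3, Ldha, Pgk1, Bnip3, Ndrg1 and P4ha1. For Hk2 the margin was small, 7.95 against 7.94 in wild type ventilated lungs. That group also had the lowest mean of Hk1 and Pdk1. Its mean sums of endothelial, fibroblast, muscle and T, B and NK markers were the lowest of the groups. Muscle markers, which matter for Hk2 as a hexokinase of muscle, were highest in wild type ventilated array 1 (summed level 10262), where Hk2 read 7.92, between the other arrays of its group. Under ventilation muscle sums did not overlap between genotypes, at 2999 to 10262 in wild type and 1558 to 2340 in Zmpste24-/- lungs. At baseline they overlapped, at 3064 to 5334 and 1193 to 4641. Of 11 muscle markers, Actc1 passed as lower in Zmpste24-/- lungs under ventilation, and Acta1 as higher at baseline. The part of these cells in the results was not tested.

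**Figure D3:**
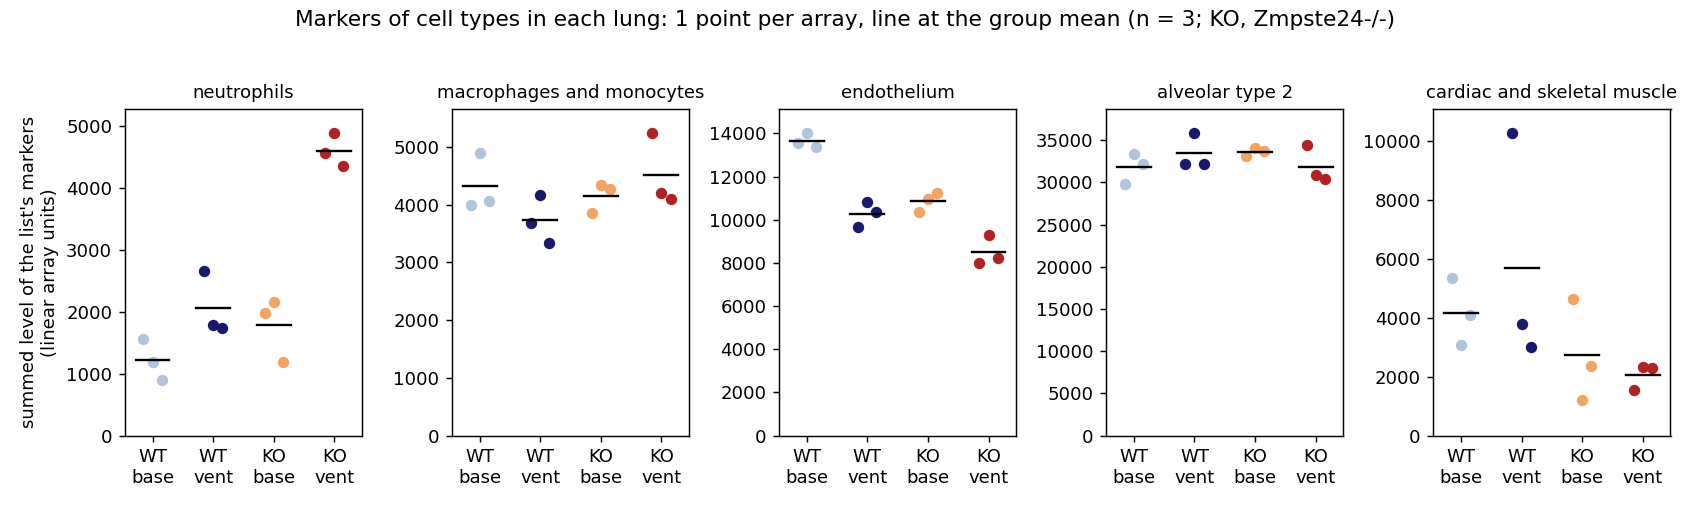
Summed linear level (y axis, array units) of the markers of 5 cell types on each array, with a line at the group mean (n = 3 per group, WT wild type, KO Zmpste24-/-). Neutrophil sums reach 4880 in Zmpste24-/- ventilated lungs, endothelial sums are 13360 to 14012 in wild type baseline and 8018 to 9296 in Zmpste24-/- ventilated lungs, and type 2 sums overlap in all groups.

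Of 14 further glycolytic enzymes measured singly, out of 18 listed, 1 rose in each genotype and none fell, with medians of 0.08 and 0.10 (log2) for ventilation. Over all genes 3.67% rose in wild type and 8.89% in Zmpste24-/- lungs, and 1 of 14 cannot be read as an excess. The enzyme that rose in wild type was Hkdc1, a hexokinase-like enzyme (0.69 ± 0.12, adjusted p = 0.00282), which gave 0.22 ± 0.12 in Zmpste24-/- lungs. The enzyme that rose in Zmpste24-/- lungs was Hk3, the hexokinase of myeloid cells (0.47 ± 0.10, adjusted p = 0.00561), which gave 0.08 ± 0.10 in wild type. Hk3 was higher in Zmpste24-/- than wild type ventilated lungs (0.37 ± 0.10, adjusted p = 0.0323), where neutrophil markers were also higher. Neither enzyme passed the interaction (adjusted p = 0.257 for Hkdc1 and 0.277 for Hk3).

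Of 12 regulators of glycolysis and of pyruvate entry into mitochondria, 3 passed for ventilation in wild type lungs (2 higher, 1 lower) and 4 in Zmpste24-/- lungs (3 higher, 1 lower). The shares of all genes were 3.67% higher and 3.53% lower in wild type, and 8.89% and 7.52% in Zmpste24-/- lungs. Pdk4, another kinase of pyruvate dehydrogenase, read 8.01, 6.96 and 7.05 (log2) in wild type baseline lungs and 9.67, 9.47 and 9.48 after ventilation. In Zmpste24-/- lungs it read 8.59, 7.59 and 7.38, then 10.38, 10.39 and 9.97. Ventilated arrays lay above all baseline arrays, and Pdk4 rose by 2.20 ± 0.29 (adjusted p = 0.000673) and 2.40 ± 0.29 (adjusted p = 0.000107). Its relative Pdk2 fell, by -0.50 ± 0.14 in wild type (adjusted p = 0.0422) and -0.80 ± 0.14 in Zmpste24-/- lungs (adjusted p = 0.00128). The wild type Pdk2 call was lost in 9 of the 12 fits that left out an array. Of the pyruvate dehydrogenase kinases, Pdk4 rose and Pdk2 fell in both genotypes, while Pdk1 fell in Zmpste24-/- lungs. The fourth kinase, Pdk3, gave -0.12 ± 0.10 in wild type and -0.04 ± 0.10 in Zmpste24-/- lungs and did not pass. Pfkfb2, of the same enzyme family as Pfkfb3, rose by 0.42 ± 0.09 and 0.29 ± 0.09 (adjusted p = 0.0130 and 0.0408), and Tigar, which lowers fructose 2,6-bisphosphate, rose by 0.32 ± 0.09 in Zmpste24-/- lungs (adjusted p = 0.0228).

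Glucose and lactate transporters other than Slc2a1 passed in both directions. Of 11 measured, ventilation lowered 1 in wild type lungs, and raised 1 and lowered 2 in Zmpste24-/- lungs. Over all genes 3.53% fell in wild type, and 8.89% rose and 7.52% fell in Zmpste24-/- lungs. Counts of 1 and 2 among 11 genes cannot be read as an excess. Slc2a3, a glucose transporter of neurons and white blood cells, rose by 0.56 ± 0.09 in Zmpste24-/- lungs (adjusted p = 0.000705). The lactate and pyruvate carrier Slc16a7 fell there by -0.79 ± 0.12 (adjusted p = 0.000423) from a baseline that was 0.59 ± 0.12 above wild type (adjusted p = 0.00980). The glucose transporter Slc2a12 fell in Zmpste24-/- lungs by -0.43 ± 0.14 (adjusted p = 0.0450), and Slc2a6 fell in wild type by -0.38 ± 0.10 (adjusted p = 0.0441). The Slc2a6 call was lost in 9 of the 12 fits that left out an array.

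Among 21 other hypoxia-induced genes measured singly, 5 rose and none fell with ventilation in wild type lungs, and 6 rose and 1 fell in Zmpste24-/- lungs, with medians of 0.14 and 0.32 (log2). Without the wild type baseline array that carried liver transcripts the wild type count was 3, and with arrays weighted by quality the Zmpste24-/- count of 7 was 12. The shares of all genes were 3.67% higher and 3.53% lower in wild type, and 8.89% and 7.52% in Zmpste24-/- lungs. Hmox1, which degrades heme and also answers oxidative stress, rose by 2.36 ± 0.30 and 3.00 ± 0.30 (adjusted p = 0.000455 and 2.00e-05). P4ha2, the sister subunit of P4ha1, rose in both genotypes, by 0.56 ± 0.12 and 0.72 ± 0.12 (adjusted p = 0.0123 and 0.00101), whereas P4ha1 passed in Zmpste24-/- lungs and not in wild type. The interaction of P4ha1 did not pass. Like P4ha1, P4ha2 passed as higher in Zmpste24-/- than wild type lungs under ventilation, at 7.87 to 8.01 against 7.17 to 7.55. The repressor Bhlhe40 rose by 0.96 ± 0.17 in wild type lungs (adjusted p = 0.00352), and the histone demethylase Kdm3a rose by 0.50 ± 0.09 in Zmpste24-/- lungs (adjusted p = 0.00246). Adm, the vessel-acting peptide adrenomedullin, was the gene of this list that passed the interaction. It read 5.86, 5.85 and 6.04 in Zmpste24-/- baseline lungs and 9.35, 9.45 and 9.26 after ventilation, against 6.55, 7.29 and 7.11 and then 8.06, 7.92 and 8.50 in wild type. No array overlapped between any of these 4 groups. The classic targets Vegfa, the vessel growth factor, and Car9, a carbonic anhydrase, gave differences of -0.18 ± 0.09 and -0.09 ± 0.08 in wild type and -0.04 ± 0.09 and 0.07 ± 0.08 in Zmpste24-/- lungs, none of which passed. In wild type every ventilated Vegfa array (11.73 to 11.79) lay below every baseline array (11.93 to 11.97). Vegfa and Car9 were named after their values were seen. Other genes of this list also passed for ventilation. Egln3 was higher in wild type, Ero1a and Stc2 were higher in Zmpste24-/- lungs, and Fam162a was lower there.

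**Figure D4:**
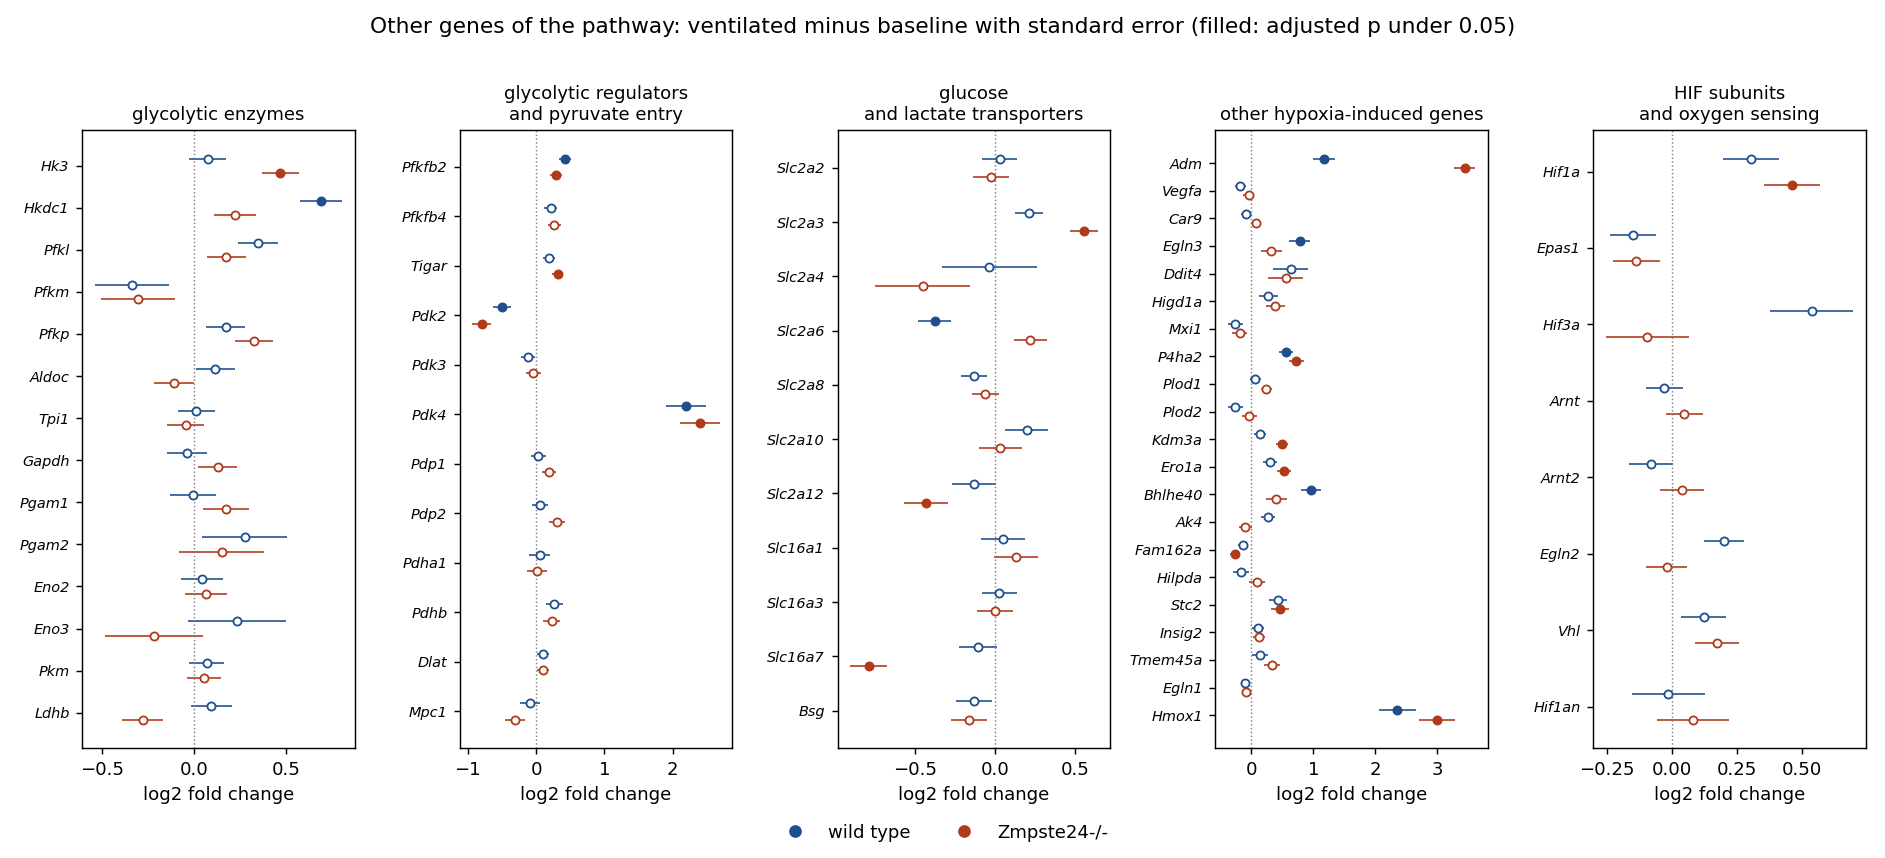
Ventilation differences (log2 fold change, x axis, a separate scale in each panel) with standard errors of the genes in 5 lists in wild type (blue) and Zmpste24-/- lungs (red). Filled points passed an adjusted p under 0.05. Most glycolytic enzymes lie within 0.5 of 0, while Pdk4, Hmox1 and Adm lie beyond 1 in both genotypes.

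Of 8 genes for HIF subunits and oxygen sensing, none passed for ventilation in wild type lungs, and 1 rose in Zmpste24-/- lungs, where 8.89% of all genes rose. In wild type 3 had an unadjusted p under 0.05 in limma (share of all genes at that threshold not given here). Hif1a, the oxygen-regulated subunit, read 8.24, 8.04 and 8.16 (log2) in Zmpste24-/- baseline lungs and 8.47, 8.69 and 8.66 after ventilation. That rise was 0.46 ± 0.11 (adjusted p = 0.00909), and the wild type difference was 0.31 ± 0.11 (adjusted p = 0.113). In both genotypes the ventilated arrays lay above the baseline arrays. Hif1a protein, which oxygen controls, was not measured by these arrays. For genotype at baseline, 2 of the 8 genes were higher in Zmpste24-/- lungs, against 2.20% of all genes. Hif3a read 6.53 to 7.04 there against 5.84 to 5.97 in wild type, and Egln2 7.97 to 8.09 against 7.65 to 7.80. Fits without single arrays are not given for these 2 genes. Under ventilation none of the 8 passed for genotype.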

How the data were processed

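RNA of whole lung was measured in 12 mice on 1-colour Affymetrix arrays, 1 array per mouse, and group and replicate number came from the labels. The authors deposited normalized values, taken as log2 from their range. Per the submitters' processing notes, the tools were RMA and limma. Tool versions, the genome build, scan dates and slides: not given in the sources used here. Batches of arrays could therefore not be tested.

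Of 41345 probes, 23521 had 1 gene symbol in the platform annotation, 1814 several and 16010 none. Of the 1-symbol probes, 23328 matched a RefSeq gene table (GRCm38.p6) by gene identifier and 193 did not. The brightest 1-symbol probe per gene left 22180 genes. In limma 3.58.1 (R 4.3.3), lmFit and eBayes were run on all arrays together with a mean for each group, with Benjamini-Hochberg adjustment per contrast over all genes, and an adjusted p under 0.05 passed. The script was tested on simulated data. Marker sums are sums of 2 to the power of the log2 values. Figures used matplotlib 3.10.9 in Python 3.11.15.

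The genes and lists were chosen with earlier results of these data known. Named besides the 10 genes are, from each list, up to 4 genes that passed for ventilation, taken by smallest adjusted p, and any listed gene that passed the interaction. Vegfa, Car9, Pdk3, Egln3, Ero1a, Stc2, Fam162a, Egln2 and Hif3a fall outside this rule and were named after their values were seen. Alternatives were filters on dim genes, other scalings, fits of the compared groups alone, a replicate block, other variance models, the mean of a gene's probes, leaving out each array and, added after seeing the data, the gene's other probe.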

Additional observations from a re-analysis of the deposited data

Results flagged for a closer look

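Ventilation raised Adm, which encodes adrenomedullin, in both genotypes, by 1.18 ± 0.17 (log2 difference ± standard error, with n = 3 in each group, adjusted p = 0.00132) in wild type and 3.44 ± 0.17 (adjusted p = 3.22e-07) in Zmpste24-/- lungs. The interaction gave a difference between these effects of 2.26 ± 0.25 (limma, adjusted p = 0.00401), and the adjusted p ran from 0.000483 to 0.0203 over the alternatives. At baseline Adm was lower in Zmpste24-/- lungs by -1.07 ± 0.17 (adjusted p = 0.00332), and under ventilation it was higher by 1.19 ± 0.17 (adjusted p = 0.00102).

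G6pc, which encodes the glucose-6-phosphatase that releases glucose from liver, read lower on every ventilated than baseline array in wild type lungs and higher on every one in Zmpste24-/- lungs. The effects were -0.41 ± 0.10 (adjusted p = 0.0189) and 0.09 ± 0.10 (adjusted p = 0.657), and they differed by 0.50. This opposite order of the arrays was not itself tested, and in limma the interaction of G6pc did not pass (adjusted p = 0.144). G6pc lay between 4.21 and 4.88 (log2), below the array median on every array, and the highest value was that of wild type baseline array 2, which carried liver transcripts. Without that array the wild type difference was -0.31 and no longer passed (adjusted p = 0.0667). It also failed in a fit of the wild type arrays alone (0.0810) and when ventilated array 3 of the wild type was left out (0.0738). On wild type baseline arrays 1 and 3, liver transcript sums were 559 and 920, against 225 to 264 in Zmpste24-/- baseline lungs. The part of liver transcripts in the G6pc result was not tested. Groups of 3 arrays were not searched for single outlying arrays.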

How the results depend on the processing

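Of 1060 values of the 10 genes under an alternative, 1022 kept their side of the threshold, 29 were no longer past it, 8 newly passed and 1 that had passed changed sign. Of the 1022, 990 kept their sign and 32, which passed in neither fit, changed it, among them the interaction of Slc2a1 with its other probe (-0.025). The passing value that changed sign was the genotype difference of Pdk1 under ventilation with its other, dim probe (0.052). Leaving out 1 array at a time gave 2 to 4 of the 10 genes past the threshold for ventilation in wild type, 4 to 7 in Zmpste24-/-, 2 for genotype at baseline, 0 to 3 for genotype under ventilation and 0 for the interaction. The median over the 10 genes then ran from 0.20 to 0.39 for ventilation in Zmpste24-/- lungs, from 0.10 to 0.24 for genotype at baseline and from -0.21 to 0.065 for the interaction. The cause was not tested. Over all genes the count for ventilation in wild type was 1597, and 799 without wild type ventilated array 3 or 923 with the compared groups alone. For genotype it was 1399 at baseline and 2395 under ventilation, with lowest values of 646 and 1369. For the interaction it was 70, with 8 to 118 when an array was left out and 26 to 164 otherwise.

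The replicate numbers gave no sign of pairing, although weak correlations cannot show that the mice were unpaired. Same-numbered arrays deviated with correlations of -0.15 to 0.15 (median 0.04), and 2 of 18 were over 0.1. Arrays with different numbers gave -0.25 to 0.23 (median 0.0035), with 7 of 36 over 0.1. Of the 12 arrays, 4 were closest to their own number. With the replicate block, the ventilation call of Bnip3 in Zmpste24-/- lungs was lost (0.32, adjusted p = 0.0537) and Hk1 passed for genotype under ventilation (-0.35, adjusted p = 0.0402). Array numbers limit precision, and no background level was set for the probes.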

Other observations

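The pentose phosphate pathway branches from glycolysis. Pgd, which encodes its 6-phosphogluconate dehydrogenase and makes NADPH, read 9.34, 9.25 and 9.51 (log2, arrays 1 to 3) in wild type baseline lungs and 10.16, 9.95 and 10.20 after ventilation. In Zmpste24-/- lungs it read 9.73, 9.45 and 9.49, then 10.11, 10.27 and 10.15. Ventilated arrays lay above all baseline arrays. Pgd rose by 0.74 ± 0.10 in wild type lungs (limma, adjusted p = 0.000963) and 0.62 ± 0.10 in Zmpste24-/- lungs (adjusted p = 0.00111). It was the 1 gene of 5 measured in that pathway that passed for ventilation in either genotype. Over all genes 3.67% rose in wild type and 8.89% in Zmpste24-/- lungs.

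Of 7 gluconeogenic enzymes, 1 fell with ventilation in each genotype and none rose, while of all genes 3.53% fell in wild type and 7.52% in Zmpste24-/- lungs. In wild type it was G6pc, which lay below the array medians and did not pass without the baseline array that carried liver transcripts (adjusted p = 0.0667). G6pc3, the glucose-6-phosphatase found in most cells, fell by -0.32 ± 0.08 in Zmpste24-/- lungs (adjusted p = 0.0172), a call lost without baseline array 1 or 2 or ventilated array 3 of that genotype (0.0584 to 0.0819). Among 8 relatives of P4ha1 and Ndrg1, Ndrg3 fell in wild type lungs by -0.35 ± 0.09 (adjusted p = 0.0279, lost in 5 of the 12 fits that left out an array) and Ndrg2 fell in Zmpste24-/- lungs by -0.65 ± 0.14 (adjusted p = 0.00708), while Ndrg1 itself gave 0.00 ± 0.08 and 0.08 ± 0.08 in the same comparisons. The other collagen-modifying relatives, P4ha3, P4hb, P3h1, P3h2 and Crtap, did not pass for ventilation in either genotype.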
